A study of Mus musculus with 12 samples.

Results

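Wild-type (WT) mouse embryonic stem (ES) cells were compared with WT cells at day 8 of differentiation, on 4 of the 12 expression arrays of the series. The 2 day 0 arrays hold undifferentiated WT ES cells of the lines N12 and N33, both C57BL/6 and at passage 12, which were kept with LIF on a layer of mitomycin-C treated mouse embryonic fibroblasts. The 2 day 8 arrays hold WT C57BL/6 cells that had spent 4 days as embryoid bodies (EBs) in hanging drops without LIF and were then plated at 10 to 15 EBs a well. Which lines the day 8 arrays came from, and whether they are separate lines, is not stated in the labels or methods. The other 8 arrays hold WT cells at day 15 and *Terc*-/- (KO) cells at days 0, 8 and 15, 2 arrays each. The KO cells lack the RNA component of telomerase, are labelled G3/4 and came at day 0 from the lines F35 and A49 at passage 11. These arrays share the estimate of the spread, and WT day 15 and KO cells are set beside the WT change where named. The arrays compared are those labelled WT at day 0 and at day 8, and all 45037 probe sets that are not controls of the manufacturer were tested.

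ES cells are kept in the naive state, which resembles the inner cell mass of the blastocyst, by LIF and a circuit of transcription factors around Oct4 (*Pou5f1*), Nanog and Sox2. When LIF is withdrawn and the cells aggregate, the naive factors are shut down first, the cells pass through a primed state like that of the epiblast after implantation, and parts of the EB then take on the programs of the primitive streak, mesoderm and endoderm. Plated EBs are known for beating cardiac muscle, for an outer layer like visceral endoderm and for blood islands.

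The probes of a transcript are read together as a probe set, and its intensity is relative, so levels are compared here between arrays for a single gene and never between genes. Arrays have no read depth, and precision is limited by how many there are. The authors scaled the 4 day 0 arrays of the series apart from the 8 later ones, with medians of 114 to 117 against 50.6 to 53.1, so that all values were brought to 1 distribution (quantile normalization) before days were compared. Processing batch and day cannot be told apart. A gene was called when its adjusted p in limma was under 0.05, and was read from its brightest probe set for that gene alone. This gave 18093 genes, among them 391 of the 424 members of 35 gene lists. The lists overlap, with 10 genes in more than 1 of them. The p-values measure the spread within the 6 groups of 2 arrays, and differences are given on the log2 scale as mean ± SE. The 2 WT day 8 arrays lay farther apart than the 2 arrays of day 0, with 474 genes (2.62%) over 2-fold apart against 47 (0.26%).

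Between day 0 and day 8, 5658 genes (31.3%) were higher and 6156 (34.0%) were lower, and the median difference of all genes was -0.02. Most of these differences were small, since 7116 of the 11814 called genes (60.2%) differed by less than 2-fold. At least 4-fold differences were called for 489 genes higher (2.7%) and 407 genes lower (2.25%). Without normalization between days the same fit called 1349 genes higher and 13802 lower, so 8.9% of the calls were higher against 47.9% after quantile normalization. The median of all probe sets then sat at -1.09. Centring each array on its median, which moved the median of all genes to 0.13, gave 57.6%. Counts of list members below are read against the shares of all genes, which stand as dotted lines in the plot of calls per list.

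**Figure D1:**
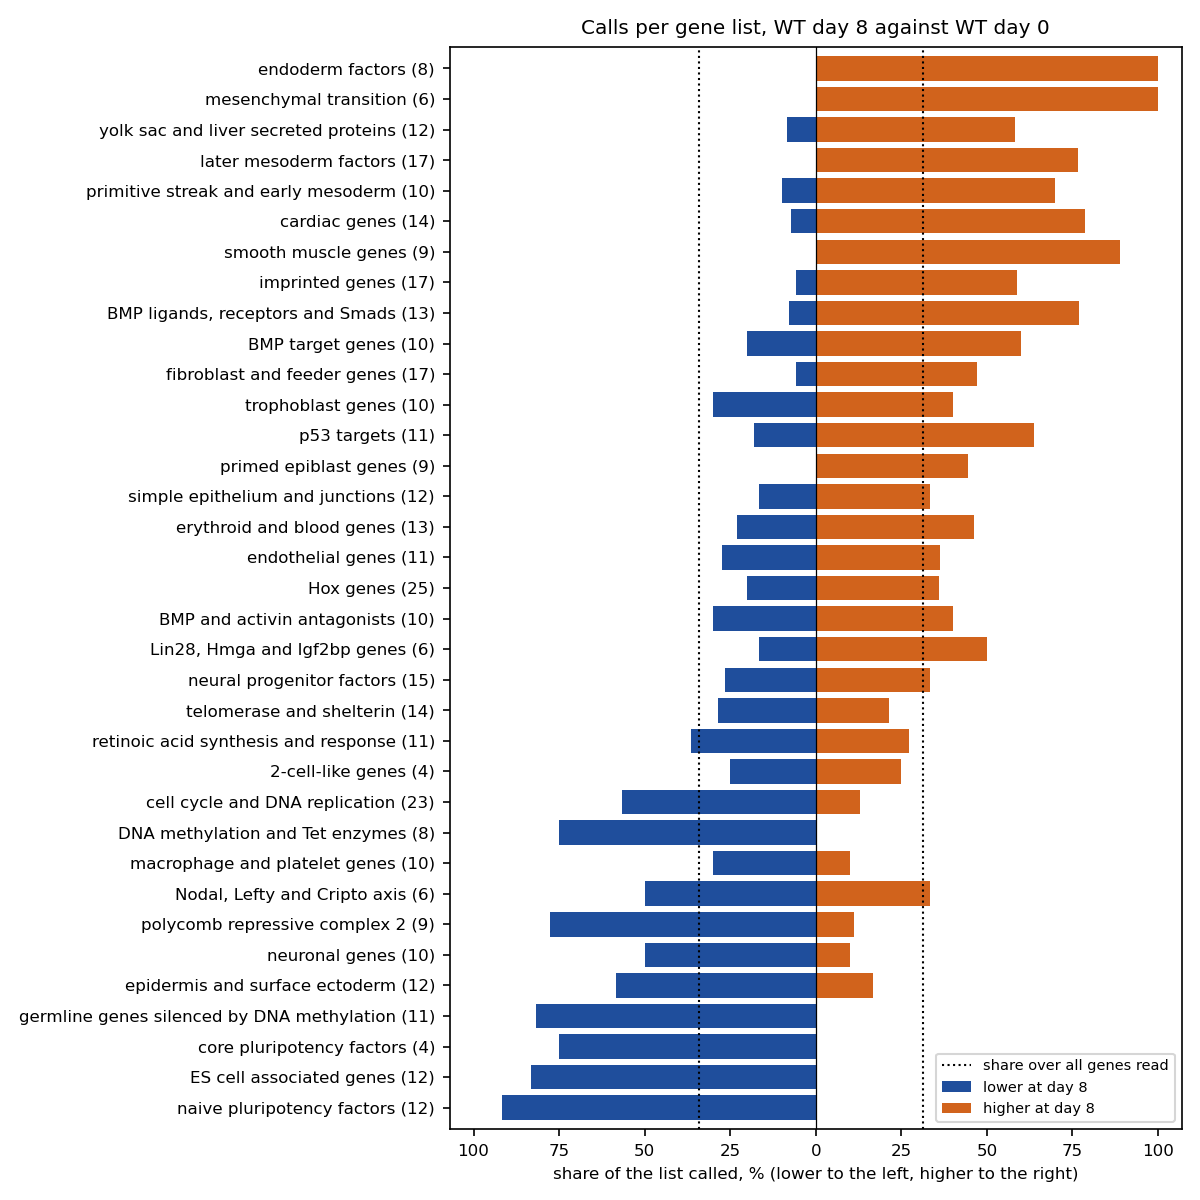
Share of each gene list called higher (to the right) or lower (to the left) at WT day 8 against WT day 0, in percent of the members read, whose number stands in brackets. Dotted lines mark the shares over all genes read, 31.3% higher and 34.0% lower; all genes read of the endoderm and mesenchymal lists were higher, and the core, naive, ES cell, germline and DNA methylation lists held 0 genes called higher.

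The pluripotency genes were lower at day 8, the naive factors most. The core factors fell for 3 of 4 genes read, with a median of -1.72. At day 0 the defining markers *Pou5f1*, *Nanog*, *Sox2*, *Zfp42* and *Dppa5a* all stood at or above percentile 91.8 of the probe sets of their arrays, as the label of undifferentiated ES cells asks. *Pou5f1*, which encodes Oct4, had normalized intensities of 5573 and 5141 at day 0, on the arrays of N12 and N33 in this order, and of 2397 and 1343 on the first and second array of day 8 (-1.58 ± 0.39, adjusted p = 0.00634). Values of other genes are given in the same order, day 0 before day 8. Both day 8 arrays lay below both day 0 arrays, but the gene still stood at percentile 95.5 at day 8, and without the second day 8 array its difference was -1.15 with an adjusted p of 0.076, and after centring -0.95 with an adjusted p of 0.06. *Nanog*, the homeodomain factor that stabilizes self-renewal, went from 3548 and 3344 to 1190.1 and 753 (-1.86 ± 0.35, adjusted p = 0.0012). *Sox2*, the partner of Oct4 on DNA, had the largest difference of the 4, from 6327 and 6597 to 776 and 581, a 9.62-fold decrease (-3.27 ± 0.24, adjusted p = 1.97e-06). *Sall4*, a zinc finger factor that remains in the early embryo, read 2871 and 2812 at day 0 and 2588 and 1832 at day 8 and was not called (adjusted p = 0.274).

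Naive factors were lower for 11 of 12 genes, 8 of them at least 4-fold, and the list's median was -2.93. *Nr0b1* (Dax1), an Oct4-interacting nuclear receptor, fell from 1211 and 1122 to 80.7 and 105 (-3.66 ± 0.33, adjusted p = 8.26e-06), 12.7-fold lower and among the 15 genes with the largest decrease. *Klf4*, a LIF-induced Krüppel-like factor, read 5494 and 5180.2 and then 250.0 and 751, so that its day 8 arrays differed from each other 3.00-fold while both stayed far below day 0 (-3.62 ± 0.54, adjusted p = 0.00039). *Klf2*, its relative, was at 3327 and 3195 at day 0 and 272 and 277 at day 8 (-3.57 ± 0.21, adjusted p = 2.05e-07). The nuclear receptor gene *Esrrb* was at 1801 and 1727 at day 0 and 172 and 173 at day 8 (-3.36 ± 0.22, adjusted p = 3.32e-07), and *Tfcp2l1*, a target of LIF signaling, was lower by 3.09 ± 0.27. *Zfp42* (Rex1), the usual reporter of the naive state, dropped from percentile 91.8 to 61.2, with intensities of 983 and 921 and then 100.0 and 121 (-3.12 ± 0.47, adjusted p = 0.000378). *Tcl1*, *Gbx2* and *Prdm14* changed by -2.78, -2.53 and -1.64. Smaller decreases were called for *Klf5* (-0.54) and *Nr5a2* (-0.64), and neither is called after centring on the median, nor *Klf5* without the first day 8 array (-0.38, adjusted p = 0.0601). *Tbx3* was the one naive factor not called, at 632 and 586 at day 0 and 579 and 359 at day 8 (adjusted p = 0.375).

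The promoter of *Zfp42* is shown because it carries the octamer that Oct4 recognizes. It spans chr8:43307010-43307259 on the minus strand (RefSeq, GRCm38.p6), the 250 bases before the gene start, written 5′ to 3′ with the octamer in capitals, here as ATTTGCAT, the reverse complement of ATGCAAAT. Its first letter lies 186 bases before the start.
Zfp42: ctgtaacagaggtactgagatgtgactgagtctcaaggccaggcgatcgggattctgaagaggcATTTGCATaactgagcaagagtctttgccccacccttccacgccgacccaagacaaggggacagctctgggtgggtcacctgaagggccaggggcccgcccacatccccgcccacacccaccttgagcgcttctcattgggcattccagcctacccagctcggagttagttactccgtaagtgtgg
Over 300 bases around the start, the octamer on either strand stood in 6 of 307 promoters of the genes at least 4-fold lower (1.95%), in 7 of 374 of those at least 4-fold higher (1.87%) and in 1.5% of all 14373 promoters matched. The site of Esrrb, TCAAGGTCA, was found in 0.33%, 0.0% and 0.34%, and the GATA letters AGATAA in 7.82%, 11.5% and 8.13%. These shares describe the letters in the windows only.

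Genes that mark ES cells without belonging to the factor circuit were lower for 10 of 12 read, with 7 at least 4-fold and a median of -2.35. *Dppa3* (Stella), which protects imprints in the early embryo, went from 1764 and 1909.5 to 287 and 281 (-2.69 ± 0.25, adjusted p = 5.81e-06). *Gdf3*, a TGF-β family ligand, went from 1035 and 1071 to 160.5 and 164 (-2.70 ± 0.15, adjusted p = 1.14e-07), and *Fgf4*, the ES cell FGF whose signal drives cells out of the naive state, from 1609.9 and 1770.1 to 276 and 318 (-2.51 ± 0.51, adjusted p = 0.00215). *Dppa2*, *Dppa4* and *Fbxo15* changed by -2.74, -2.55 and -2.73, *Mybl2* by -2.19 and *Utf1* by -1.60. The calls of *Dppa5a* (-1.31) and *L1td1* (-1.52) were the weakest of the list. Both are lost without the N33 array of day 0, without either day 8 array and after centring. The call of *L1td1* is also lost without the N12 array. The 2 genes not called encode RNA regulators of the early embryo. *Lin28a*, which blocks *let-7* processing, read 1933 and 2045 at day 0 and 2715 and 1497 at day 8, and *Trim71* read 2480.4 and 2283 at day 0 and 2301 and 1644 at day 8.

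**Figure D2:**
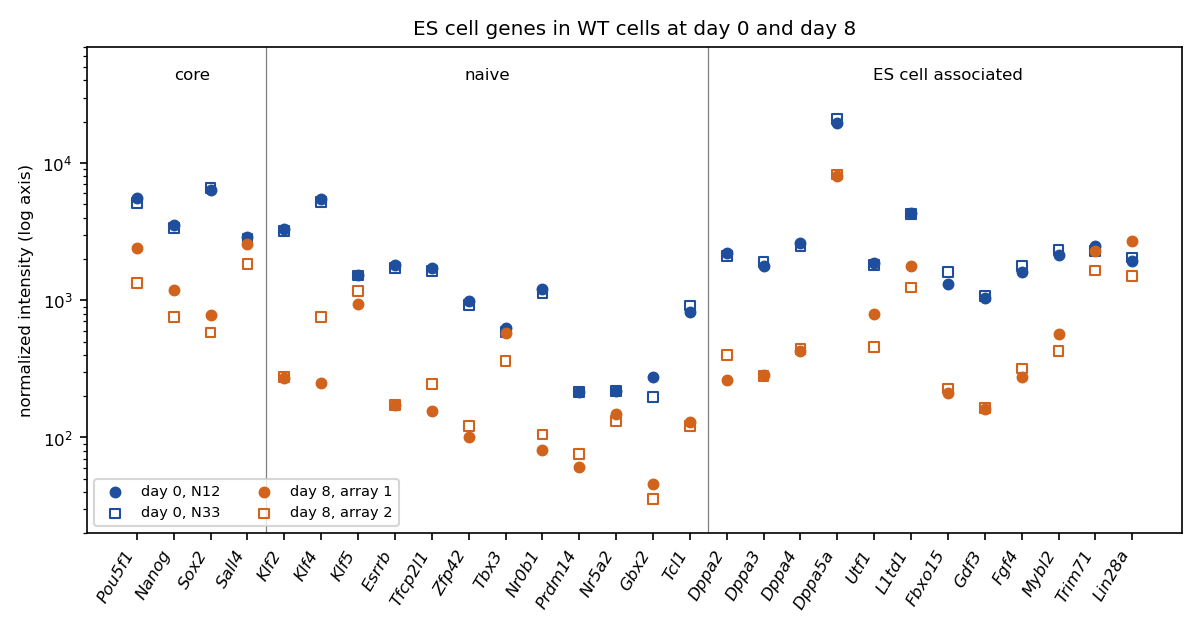
Normalized intensity (log axis) of 28 ES cell genes on the 2 WT day 0 arrays (blue) and the 2 WT day 8 arrays (orange), in 3 lists. Naive factors such as *Esrrb*, *Nr0b1* and *Zfp42* lie well below day 0 on both day 8 arrays, whereas *Sall4*, *Trim71* and *Lin28a* overlap or nearly overlap between days.

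Genes of the Nodal pathway, which keeps the primed epiblast and patterns the streak, did not move together. The ligand *Nodal* itself was at 1177 and 1098 at day 0 and 1300.3 and 871 at day 8 (adjusted p = 0.787). Its inhibitors *Lefty1* and *Lefty2* fell by 2.13 ± 0.18 and 1.90 ± 0.34. *Tdgf1* (Cripto), the Nodal co-receptor, went from 7649 and 7793 to 4132 and 2430.2 (-1.28 ± 0.40, adjusted p = 0.0202), a call that is lost without the second day 8 array (-0.9, adjusted p = 0.175) or without either day 0 array, and after centring. *Foxh1*, the DNA-binding partner of Smad2, rose from 213 and 241 to 1152 and 394 (1.57 ± 0.39, adjusted p = 0.0055), or by 0.79 without the first day 8 array, and *Cer1*, a secreted Nodal and BMP inhibitor of anterior endoderm, from 25.2 and 26.6 to 108 and 80.0 (1.85 ± 0.22, adjusted p = 1.95e-05). In all, 2 of 6 genes read were higher and 3 lower.

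Of the genes of the primed epiblast 4 of 9 were higher, each at least 4-fold, and 0 were lower. *Fgf5*, the classical marker of that state, was near the floor of the arrays at day 0 (12.3 and 11.8, percentile 7.33) and read 790.4 and 295 at day 8 (5.33 ± 0.62, adjusted p = 8.61e-05), among the 15 largest increases, though its size is uncertain from so low a level. *Otx2*, a homeodomain factor of the epiblast and the anterior embryo, went from 93.3 and 158 to 886 and 331 (2.16 ± 0.41, adjusted p = 0.00124). *Sox4* and *Sox11*, both expressed broadly in early embryos, rose by 2.09 ± 0.14 and 2.02 ± 0.22. The other 5 were not called. *Dnmt3b*, the de novo DNA methyltransferase of the epiblast, read 3379 and 3765 at day 0 and 4609 and 2715 at day 8 (log2 difference -0.01, adjusted p = 0.967), and *Pou3f1* (Oct6) read 602 and 583 at day 0 and 573 and 342 at day 8.

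The primitive streak, where the epiblast gives rise to mesoderm and endoderm, was represented by 7 genes higher of 10 read and 1 lower, with a median of 2.15. *Mixl1*, a homeobox gene of the streak, rose from 37.0 and 46.7 to 1650.3 and 655 (4.64 ± 0.43, adjusted p = 1.28e-05), and *Eomes*, the T-box factor of streak and definitive endoderm, from 179 and 149 to 3287 and 1366 (3.70 ± 0.37, adjusted p = 1.9e-05). *Fgf8*, the FGF of migrating streak cells, went from 37.8 and 48.7 to 864 and 259.6 (3.46 ± 0.45, adjusted p = 0.00012). In each of these the first day 8 array read over 2-fold more than the second, and both lay above day 0. *Lhx1* (2.49, or 1.65 without the first day 8 array), *Gsc* (2.57) and *Evx1* (1.8) were also higher. *Mesp1*, which marks the earliest cardiac mesoderm, read 189.8 and 176 at day 0 and 550.2 and 143 at day 8, so the day 8 arrays lay on both sides of day 0 (adjusted p = 0.274). *Mesp2* was slightly lower (-0.57), a call lost without the second day 8 array (-0.24) or either day 0 array, and after centring. *Wnt3a* was not called, and *T* (Brachyury) and *Wnt3* were not analysed here.

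The 2 day 8 arrays differed from each other along the same lists. On the second array the streak genes were lower (median log2 ratio of array 2 to array 1 of -1.17, 7 of 10 over 2-fold apart), and so were the primed genes (-0.75) and the 4 core factors (-0.58), while yolk sac and liver proteins (1.11, 12 of 12 higher) and fibroblast genes (1.11, 15 of 17 higher) were higher. The median over all genes was -0.0. Endoderm factors were higher on the second array too (0.62), and cardiac genes were even (0.04). Between the 2 day 0 lines (N33 to N12) the medians lay between -0.06 and -0.01 in the streak, primed, core, yolk sac and cardiac lists, but at 0.69 in the fibroblast genes and at -0.4 in the endoderm factors. Fewer cells of a type and less RNA per cell cannot be told apart in such bulk samples. The calls below rest on both arrays together.

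**Figure D3:**
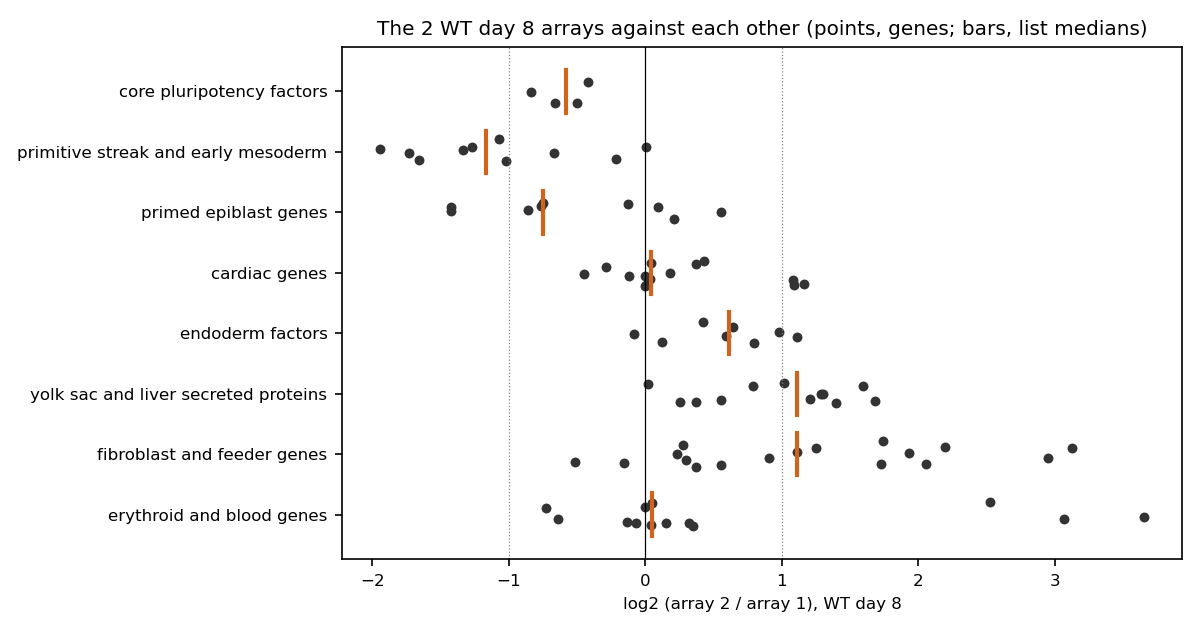
Log2 ratio of WT day 8 array 2 to array 1 for the genes of 8 lists (points) with the list medians (bars); dotted lines mark a 2-fold difference. Most streak and primed genes lie to the left, yolk sac and fibroblast genes to the right, and 3 embryonic globin genes stand at the far right of the erythroid list.

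Factors of later mesoderm were higher for 13 of 17 genes and lower for 0, with a median of 2.27. *Hand2*, a bHLH factor of heart and limb mesoderm, went from 18.2 and 18.5 to 536 and 1095 (5.38 ± 0.41, adjusted p = 3.64e-06), and *Tbx20*, a T-box factor of the early heart, from 27.2 and 17.5 to 429.9 and 807 (4.76 ± 0.30, adjusted p = 5.98e-07). *Meis2*, a homeodomain cofactor of Hox proteins, rose from 54.6 and 52.2 to 514 and 864 (3.64 ± 0.28, adjusted p = 2.06e-06). *Msx2* (3.12), *Msx1* (2.51), *Twist1* (2.57), *Isl1* (2.42) and the epithelial-mesenchymal transition factors *Snai1* (2.27) and *Snai2* (2.39) were also at least 4-fold higher. *Hand1*, *Prrx1*, *Foxf1* and *Gata2* were not called. The list of 6 mesenchymal genes rose completely (median 2.42), including N-cadherin *Cdh2* (88.0 and 106 to 1237 and 1732, 3.92 ± 0.22, adjusted p = 1.4e-07), *Zeb2* (2.89) and vimentin *Vim* (1.96). With all probe sets of each gene averaged, all 6 were still called higher, but the median was 1.11. Another probe set of *Vim* was called lower.

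Cardiac genes were higher for 11 of 14 genes, 7 of them at least 4-fold, and 1 was lower (median 2.13). Sarcomere genes led. *Tnnt2*, cardiac troponin T, was near the floor at day 0 (7.97 and 6.87) and read 323 and 418 at day 8 (5.63 ± 0.41, adjusted p = 2.97e-06), a size that is uncertain for the same reason as that of *Fgf5*. *Actc1*, cardiac α-actin, went from 26.5 and 30.1 to 963 and 992 (5.11 ± 0.51, adjusted p = 2.86e-05) and *Tnnc1*, troponin C, from 83.3 and 57.0 to 993 and 1124 (3.94 ± 0.29, adjusted p = 2e-06). *Myl7*, the atrial myosin light chain, rose from 72.6 and 67.0 to 1202 and 881 (3.88 ± 0.54, adjusted p = 0.000256), and *Myl2*, its ventricular counterpart, by 2.78 ± 0.73. *Myh7*, the myosin heavy chain of the embryonic ventricle, was higher by 2.83 ± 0.36, whereas *Myh6* (adjusted p = 0.0965) and *Nppa* (adjusted p = 0.0664) were not called. The upstream factor *Nkx2-5* rose only from 43.7 and 49.7 to 81.0 and 80.8 (0.79 ± 0.17, adjusted p = 0.00173), and *Tbx5* was lower (-0.91). Without the second day 8 array 8 of the list were higher, *Myl4*, *Myl2* and *Mef2c* losing their calls, and without the first *Myl4* and *Myl2* also lost them, as did *Mef2c* without either day 0 array. Smooth muscle genes were higher for 8 of 9 (median 1.84), including *Tpm1* (2.72), *Tagln* (2.48) and *Acta2* (2.34). *Myl9* and *Actg2* lose their calls without the second day 8 array, where *Actg2* goes from 1.69 to 0.47 and *Myl9* from 0.80 to 0.33, or without either day 0 array. Without the first day 8 array they are at 2.89 and 1.27.

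Endoderm factors were higher for 8 of 8 genes read (median 2.54). *Foxa2*, the forkhead factor of definitive endoderm and notochord, went from 45.4 and 32.3 to 532 and 802 (4.09 ± 0.41, adjusted p = 2.46e-05). Its relative *Foxa1* was at 24.8 and 17.4 at day 0 and 181 and 314 at day 8 (3.52 ± 0.30, adjusted p = 3.32e-06). *Gata6* and *Gata4*, which specify primitive endoderm and are also used in heart, rose from 84.2 and 58.3 to 745 and 1467 (3.90 ± 0.31, adjusted p = 3.32e-06) and from 64.5 and 69.9 to 467 and 442 (2.76 ± 0.13, adjusted p = 3.01e-08). *Sox17* (2.32), *Sox7* (2.26), *Hnf4a* (1.29) and *Foxa3* (1.14) completed the list, the last losing its call without the N33 array or either day 8 array. Proteins secreted by yolk sac and liver were higher for 7 of 12 and lower for 1, with 6 at least 4-fold and a median of 2.42. *Ttr*, the thyroid hormone carrier made by visceral endoderm, went from 68.2 and 68.0 to 1072 and 2615 (4.62 ± 0.39, adjusted p = 7.81e-06). *Afp*, the fetal serum protein, went from 31.5 and 27.8 to 461 and 1135 (4.61 ± 0.59, adjusted p = 0.000153), *Apob* from 26.3 and 23.3 to 391 and 903 (4.59 ± 0.39, adjusted p = 7.98e-06) and *Rbp4*, the retinol carrier, from 62.2 and 58.0 to 757 and 2292 (4.45 ± 0.47, adjusted p = 4.09e-05). The adult liver gene *Alb* was not called (26.8 and 31.6 at day 0 and 35.4 and 42.2 at day 8), nor were the receptors *Amn* and *Cubn*. *Apoa2* was lower and *Fgb* higher with adjusted p-values of 0.0485 and 0.0439, and both calls are lost without any 1 of the 4 arrays and after centring.

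Among ligands and receptors of BMP signaling, which induces mesoderm and later epidermis, 10 of 13 genes were higher and 1 lower (median 1.18). With all probe sets of each gene averaged, 11 were higher and 1 lower, and the median was 0.71. *Bmp2* went from 24.0 and 15.9 to 1863 and 1775 (6.54 ± 0.18, adjusted p = 6.83e-10), the second largest increase of all genes ranked, with the 2 arrays of day 8 close together. At day 0 it stood at percentile 15.9, so both the size and the rank are uncertain. *Bmp5* went from 17.0 and 18.8 to 481 and 409.9 (4.63 ± 0.15, adjusted p = 2.74e-09) and *Bmp4*, the ligand of the extraembryonic ectoderm and posterior streak, from 407 and 317 to 2088 and 2429 (2.65 ± 0.22, adjusted p = 1.81e-06). *Bmp6* was higher by 1.94 ± 0.31, and *Bmp7* was not called (adjusted p = 0.126). Of the receptors *Bmpr2* rose by 1.69 ± 0.18 and *Acvr1* by 0.95 ± 0.21 (0.55 without the second day 8 array), while *Bmpr1a* was not called (804 and 747 at day 0 and 859 and 929.9 at day 8, adjusted p = 0.119). The Smads that carry the signal were higher for *Smad1* (1.29), *Smad4* (1.18) and *Smad5* (0.72) and lower for *Smad9* (-0.57), whose call is lost without the N33 array or the first day 8 array. Of the BMP targets 6 of 10 were higher, among them *Id1* (1.47), *Id3* (1.27, not called without the first day 8 array) and the inhibitory *Smad6* (94.6 and 84.7 to 732 and 544, 2.82 ± 0.19, adjusted p = 3.82e-07). The 6 also include *Msx1* and *Msx2*, which were counted among the later mesoderm factors too. The inhibitory *Smad7* (-0.52) and *Atoh8* (-2.03) were lower, *Smad7* not after centring (-0.11, adjusted p = 0.451).

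In the list of extracellular antagonists of BMP and activin 4 of 10 genes were higher and 3 lower, where 31.3% and 34.0% of all genes were. This list also holds *Inhba* and *Inhbb*, which encode activin subunits and not antagonists. *Fst* (follistatin), which binds activins and BMPs, rose from 80.3 and 102 to 497 and 458 (2.40 ± 0.33, adjusted p = 0.000122) and was called lower again by day 15 (145 and 282). *Bmper* went from 25.6 and 23.1 to 360.1 and 245 (3.61 ± 0.29, adjusted p = 2.21e-06), *Twsg1* was higher by 1.11 ± 0.11 and *Chrd* by 0.60 ± 0.14. *Inhbb*, which encodes the βB subunit of activin B, fell from 423 and 474 to 34.7 and 33.7 (-3.71 ± 0.18, adjusted p = 4.35e-08), 1 of the 15 largest decreases, while *Inhba* was not called (adjusted p = 0.622). *Nog*, noggin, was dim on all 4 arrays (30.7 and 27.4 at day 0 and 34.0 and 39.2 at day 8) and was not called. In the retinoic acid list 3 of 11 were higher and 4 lower, against the same shares of all genes. *Cyp26a1*, which degrades retinoic acid in the early embryo, went from 49.0 and 38.3 to 2131 and 987 (5.07 ± 0.38, adjusted p = 3.15e-06). *Rarb*, a receptor gene that retinoic acid induces, rose by 2.51 ± 0.30, and *Rdh10*, which makes retinal, went from 176 and 152 to 514 and 1338 (2.34 ± 0.38, adjusted p = 0.000458). The meiosis gene *Stra8* (-2.38) and the binding protein *Crabp1* (-2.34) were lower.

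Imprinted genes, which are expressed from 1 parental allele and many of which act in fetal growth, were higher for 10 of 17 genes read and lower for 1 (median 1.72), or lower for 3 without the second day 8 array. *Dlk1*, a Notch-family membrane protein of mesoderm and fetal tissues, went from 40.3 and 45.9 to 1964 and 6455 (6.37 ± 0.48, adjusted p = 5.59e-06), the third largest increase. *Igf2*, the fetal growth factor, differed between the day 0 lines (1853 and 536) and read 10547 and 17047 at day 8 (3.75 ± 0.50, adjusted p = 0.000186). Its clearance receptor *Igf2r* rose from 297 and 411 to 2745 and 5391 (3.46 ± 0.30, adjusted p = 6.41e-06). *Plagl1* (3.27), *Mest* (2.69), *Cdkn1c* (1.97), *Ndn* (1.93) and *Grb10* (1.79) were higher, while *Snrpn* was lower (-0.80) and *Meg3*, which shares its domain with *Dlk1*, was not called (adjusted p = 0.339). *H19* was not analysed here. Of 6 genes of the Lin28 and *let-7* circuit 3 were higher and 1 lower. *Hmga2*, a chromatin protein of embryonic cells that *let-7* represses, rose from 483 and 519 to 3376 and 3772 (2.83 ± 0.18, adjusted p = 2.87e-07) and the RNA-binding *Igf2bp3* by 1.5 ± 0.19.

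Genes of the germ line, many of which are kept silent by promoter DNA methylation in somatic cells, were lower for 9 of 11 read and higher for 0, 4 of them at least 4-fold (median -1.25). *Mael*, a factor of the piRNA pathway, fell from 321 and 305 to 14.3 and 15.4 (-4.40 ± 0.21, adjusted p = 4.11e-08), and *Ddx4* (Vasa), the germ cell RNA helicase, from 812 and 778 to 46.4 and 50.1 (-4.04 ± 0.25, adjusted p = 2.57e-07). *Stk31* went from 111 and 156 to 8.72 and 9.11 (-3.88 ± 0.41, adjusted p = 2.54e-05) and *Sycp3*, of the synaptonemal complex, from 607 and 655 to 104 and 78.3 (-2.80 ± 0.27, adjusted p = 6.12e-06). At day 8 *Mael* stood at percentile 9.83 and *Stk31* at 4.39, near the floor, so the sizes of their decreases are uncertain. *Rhox5* was not called, its day 8 arrays at 965 and 2085, nor was *Taf7l*. Outside the list, the 15 largest decreases held *Rnf17*, a tudor protein of male germ cells (1296 and 1558 to 98.9 and 113, -3.75 ± 0.50, adjusted p = 0.000171), and *Mei4*, needed for meiotic DNA breaks (216 and 245 to 18.6 and 16.2, -3.72 ± 0.15, adjusted p = 1.22e-08).

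The promoters of the 4 germline genes at least 4-fold lower are shown with the E-box CACGTG, the core of sites bound by Myc and Max type factors, in capitals. Each is the 250 bases before the gene start, 5′ to 3′, from RefSeq on GRCm38.p6. *Mael* lies at chr1:166238745-166238994 on the minus strand, *Ddx4* at chr13:112652311-112652560 on the minus strand, *Stk31* at chr6:49395289-49395538 on the plus strand and *Sycp3* at chr10:88459337-88459586 on the plus strand.
Mael: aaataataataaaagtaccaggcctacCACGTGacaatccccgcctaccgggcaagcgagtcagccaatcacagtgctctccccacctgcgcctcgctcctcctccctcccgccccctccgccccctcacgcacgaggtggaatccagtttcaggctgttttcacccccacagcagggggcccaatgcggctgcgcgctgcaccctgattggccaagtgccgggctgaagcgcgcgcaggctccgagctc
Ddx4: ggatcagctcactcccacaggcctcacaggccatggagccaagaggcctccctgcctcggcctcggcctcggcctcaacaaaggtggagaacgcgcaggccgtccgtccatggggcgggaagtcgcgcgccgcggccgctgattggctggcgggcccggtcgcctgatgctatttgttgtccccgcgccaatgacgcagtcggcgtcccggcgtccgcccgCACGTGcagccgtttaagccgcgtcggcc
Stk31: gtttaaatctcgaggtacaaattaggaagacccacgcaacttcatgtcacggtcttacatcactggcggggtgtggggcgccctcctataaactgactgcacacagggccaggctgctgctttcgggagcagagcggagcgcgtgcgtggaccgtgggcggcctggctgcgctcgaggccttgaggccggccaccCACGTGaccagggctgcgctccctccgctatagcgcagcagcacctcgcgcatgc
Sycp3: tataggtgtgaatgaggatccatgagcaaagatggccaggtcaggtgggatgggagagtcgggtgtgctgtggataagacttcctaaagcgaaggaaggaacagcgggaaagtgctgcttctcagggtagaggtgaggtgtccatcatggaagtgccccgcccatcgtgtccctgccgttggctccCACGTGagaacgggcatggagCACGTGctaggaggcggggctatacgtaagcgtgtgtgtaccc
The first E-box letter stood 223, 29, 55 and 64 bases before the start in this order, and *Sycp3* has a pair of them. Over 300 bases around the start, 8 of the list's 11 promoters held CACGTG (72.73%) against 1302 of 14373 of all genes (9.06%), 30 of 307 of those at least 4-fold lower (9.77%) and 24 of 374 of those at least 4-fold higher (6.42%). The palindrome reads the same on both strands. The split by list was made after the values were seen and is a description of these windows, with the members called and not called alike (*Taf7l* holds it too). The median number of CpG sites was 21 in the germline list, 11 in the genes at least 4-fold lower, 18 in those at least 4-fold higher and 17 in all.

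Genes of epidermis and surface ectoderm, the lineage the study followed to day 15, were lower for 7 of 12 and higher for 2. Their median was -0.72, from dim levels. *Krt5*, a keratin of basal epidermis, read 185 and 169.6 at day 0 and 57.0 and 67.2 at day 8 (-1.52 ± 0.15, adjusted p = 4.54e-06), and its partner *Krt14* read 52.3 and 53.3 at day 0 and 21.8 and 22.7 at day 8 (-1.25 ± 0.17, adjusted p = 4.97e-05). *Trp63* (p63), their regulator, was at 65.0 and 53.6 at day 0 and 22.1 and 20.5 at day 8 (-1.47 ± 0.14, adjusted p = 4e-06), but 1 of its 4 probe sets was called the other way, as was 1 of 3 of *Krt14*. The keratin of differentiated layers *Krt1* was lower (-0.88), while *Krt4* was not called. *Perp*, a desmosome gene that p53 and p63 activate, rose from 517 and 415 to 978 and 1961 (1.58 ± 0.28, adjusted p = 0.000639). In the list of simple epithelium and junctions 4 of 12 genes were higher and 2 lower, and 5 of 12 differed over 2-fold between the day 0 lines. *Krt8*, a keratin of simple epithelia, was brighter in N12 than in N33 and rose above both, with 3675 and 1072 at day 0 and 11266 and 14525 at day 8 (2.69 ± 0.47, adjusted p = 0.00103). Its partner *Krt18* read 4304 and 1291 at day 0 and 7122 and 9787 at day 8 (1.82 ± 0.50, adjusted p = 0.0108). Without the second day 8 array *Krt18* was not called (1.59, adjusted p = 0.103), and without the N33 array its difference was 0.97. *Dsp*, desmoplakin, went from 421 and 175 to 2626 and 3569 (3.5 ± 0.33, adjusted p = 1.58e-05) and *Krt19* rose by 2.45 ± 0.38. *Epcam*, an adhesion molecule of ES cells and epithelia, was lower (-0.96) but not after centring (-0.43, adjusted p = 0.118), where 6 of the list were higher and 0 lower, and E-cadherin *Cdh1* was not called (adjusted p = 0.0629).

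Neural progenitor factors showed no common direction, while neuronal genes were more often lower than higher. Over all genes 31.3% were higher and 34.0% lower, and the progenitor factors lay near these shares. Of the progenitor factors 5 of 15 were higher and 4 lower, with a median of 0.05 that lay between -0.1 and 0.26 without single arrays. *Irx3*, a homeobox gene of neural plate and mesoderm, was the exception in size, from 70.9 and 68.4 to 859 and 832 (3.60 ± 0.14, adjusted p = 1.2e-08). *Sox1* and *Pax6*, which define neuroectoderm, were not called, *Sox1* at 69.6 and 66.4 at day 0 and 69.8 and 71.9 at day 8 and *Pax6* at 76.5 and 78.0 at day 0 and 60.9 and 65.9 at day 8. Of the neuronal genes 1 of 10 was higher and 5 lower. Their median was -0.72, and it lay between -0.89 and -0.7 without single arrays. With an offset of 32, which shrinks differences of dim genes, it was -0.37. *Stmn2*, which is bright in these ES cells, fell from 3768 and 3519 to 1218 and 576 (-2.12 ± 0.37, adjusted p = 0.000902), and *Neurod1* from 483 and 555 to 72.0 and 58.1 (-3.00 ± 0.29, adjusted p = 8.98e-06). *Tubb3*, the neuronal tubulin, was not called (177 and 215 at day 0 and 152 and 212 at day 8, adjusted p = 0.732).

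Blood and vessel genes were mixed, where 31.3% of all genes were higher and 34.0% lower. The embryonic globin genes rose, mostly on the second day 8 array. *Hbb-bh1* read 30.7 and 39.2 at day 0 and 98.8 and 570 at day 8 (2.77 ± 0.63, adjusted p = 0.00442), *Hba-x* 28.2 and 22.1 at day 0 and 62.9 and 528 at day 8 (2.87 ± 0.78, adjusted p = 0.0108), and *Hbb-y* 17.0 and 17.3 at day 0 and 38.4 and 483 at day 8 (2.99 ± 0.95, adjusted p = 0.0214). Both arrays of day 8 lay above both of day 0 for each of them. Without the second day 8 array their differences were 1.49, 1.33 and 1.16, and without the first 4.01, 4.37 and 4.79. The call of *Hbb-y* is lost without either day 0 array (adjusted p = 0.0599 and 0.0591). The erythroid regulator *Gata1* was slightly higher (0.37), a call lost without the N12 array or either day 8 array and after centring, and *Klf1* was not called (-0.20). Of the others *Alas2*, of heme synthesis, was higher (0.67), and the adult globin gene *Hba-a1* lower (-1.71). *Lmo2*, a cofactor of blood and endothelial progenitors, rose from 51.9 and 44.6 to 313 and 189 (2.34 ± 0.22, adjusted p = 3.82e-06). Altogether 6 of 13 erythroid genes were higher and 3 lower. Of the endothelial genes 4 of 11 were higher and 3 lower, or 4 and 1 without the N12 array. *Kdr* (Flk1), which also marks mesodermal progenitors of blood and vessel, went from 99.5 and 105 to 716 and 367 (2.32 ± 0.38, adjusted p = 0.000435), and *Flt1* from 100.4 and 77.9 to 503 and 582 (2.61 ± 0.28, adjusted p = 1.57e-05). *Cdh5*, VE-cadherin, was higher by 1.61 ± 0.16 at a dim level, *Tek* was not called, and *Pecam1*, which ES cells express, was lower (-1.63). Macrophage and platelet genes were higher for 1 of 10 and lower for 3.

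Fibroblast genes need the feeder layer in view, since the day 0 cells grew on fibroblasts. Of 17 genes 8 were higher and 1 lower (median 0.98), but the list rests on single arrays. Without the second day 8 array 8 were higher and 2 lower (median 0.30), without the N12 array 8 and 3 (0.58), without the N33 array 9 and 1 (1.39) and without the first day 8 array 11 and 1 (1.84). Their summed intensity was 5648 and 7699 on the arrays of N12 and N33 and 14956 and 44474 on the day 8 arrays. *Col3a1*, a collagen of loose connective tissue, went from 208 and 446 to 2860.5 and 10894 (4.2 ± 0.61, adjusted p = 0.00033), and *Lum*, lumican, from 23.7 and 50.3 to 203 and 1770.1 (4.12 ± 0.87, adjusted p = 0.00294). Leaving out the second day 8 array gave 3.23 and 2.53 for these, and leaving out the first 5.15 and 5.65. *Postn*, periostin, went from 253 and 422 to 984 and 7602 (3.06 ± 0.79, adjusted p = 0.00824), or by 1.59 without the second day 8 array and 4.53 without the first. *Pdgfra* and *Pdgfrb*, the PDGF receptors of mesenchyme, were closer on the day 8 arrays, at 1038 and 1341 and at 700.1 and 847, and rose by 3.61 ± 0.23 and 3.31 ± 0.27. *Thy1* was lower (267 and 419.7 to 149 and 104, -1.43 ± 0.31, adjusted p = 0.00227), and *Dcn*, *Fbln2*, *S100a4* and *Lox* were not called. The part of feeder cells in the day 0 values was not tested.

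Of the trophoblast genes 4 of 10 were higher and 3 lower. *Tfap2c*, a factor of trophoblast, germ cells and naive ES cells, fell from 2071 and 2298 to 204 and 174 (-3.53 ± 0.27, adjusted p = 2.1e-06), while *Plac1* rose by 2.47 ± 0.31 and *Cdx2*, also a factor of the posterior embryo, by 1.49 ± 0.18. Of the Hox genes, which pattern the body axis, 9 of 25 read were higher and 5 lower (median 0.26), where 31.3% and 34.0% of all genes were. *Hoxd1* (12.6 and 10.9 to 108 and 64.1, 2.84 ± 0.21, adjusted p = 8.15e-07), *Hoxd9* (2.20) and *Hoxb2* (2.10) were at least 4-fold higher. Without the second day 8 array 5 Hox genes were higher and 4 lower (median 0.15), without the N12 array 5 and 3, and without the first day 8 array 11 and 3 (median 0.46).

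Genes of DNA methylation, PRC2 and replication were mostly lower by small amounts, and these lists depend on the normalization. Of the 8 genes of DNA methylation and demethylation read 0 were higher and 6 lower, while after centring on the median 0 were higher and 3 lower. The 3 that kept their calls were the largest. *Dnmt3l*, the cofactor of de novo methylation, fell from 2024 and 2129 to 366 and 281 (-2.69 ± 0.24, adjusted p = 3.28e-06), *Tet2* from 919.8 and 832 to 189 and 279.7 (-1.93 ± 0.19, adjusted p = 5.16e-06) and *Tet1*, the dioxygenase that opposes methylation in ES cells, from 2381 and 2177 to 909.8 and 614 (-1.61 ± 0.18, adjusted p = 1.18e-05). Of PRC2, the complex that sets H3K27me3, 1 of 9 genes was higher and 7 lower, against 1 and 2 after centring. In a fit of only the 4 arrays compared 1 was higher and 5 lower. Of its catalytic subunits *Ezh2* was not called (2029 and 2139 at day 0 and 2252 and 1915 at day 8). *Ezh1* was lower (-0.78 ± 0.16, adjusted p = 0.00109), a call that is lost after centring. *Eed* was lower (2603 and 2558 to 1516 and 1433, -0.81 ± 0.13, adjusted p = 0.000201), with 1 of its 2 probe sets called the other way. The call of *Eed* is lost after centring (-0.34, adjusted p = 0.0553) and when its probe sets are averaged (-0.01, adjusted p = 0.921). Of the cell cycle and replication genes 3 of 23 were higher and 13 lower (median -0.34), but after centring 10 were higher and 4 lower (median 0.16). The median was -0.12 with 5 higher and 10 lower without the second day 8 array, and -0.52 with 4 higher and 16 lower without the first. Genes with the same call under both included *Cdk1* (4331 and 4252 to 2158 and 1660, -1.18 ± 0.12, adjusted p = 6.04e-06), *Ccne1* (-1.34) and *Ccne2* (-1.19) among the lower and *Ccnd2*, the D-type cyclin of differentiating cells (381 and 549 to 2298 and 4088, 2.74 ± 0.34, adjusted p = 8.6e-05), among the higher. *Cdkn1a* (p21), an inhibitor of cyclin-dependent kinases and p53 target, rose from 1034 and 1102 to 3032 and 5442 (1.93 ± 0.22, adjusted p = 3.6e-05). Of 11 p53 targets 7 were higher and 2 lower, or 6 and 1 without any 1 array other than the first of day 8. Of the telomerase and shelterin genes 3 of 14 were higher and 4 lower, against 9 and 2 after centring. Leaving out the N33 array gave 1 and 3, the first day 8 array 1 and 5 and the second 5 and 2. *Tert*, the catalytic subunit, fell from 217 and 266 to 122 and 87.3 (-1.22 ± 0.17, adjusted p = 7.66e-05) and *Terf1*, a shelterin protein bright in ES cells, from 1565 and 1599 to 225 and 179 (-2.98 ± 0.18, adjusted p = 1.96e-07). Of 4 genes of the 2-cell-like state 1 was higher and 1 lower, all at dim levels.

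The 15 largest increases, ranked over genes with arrays that do not overlap, also held genes outside the lists. *Aplnr*, the apelin receptor of migrating mesoderm, led with 9.79 and 7.71 at day 0 and 3449 and 2042 at day 8 (8.26 ± 0.23, adjusted p = 1.2e-09). At day 0 it stood at percentile 4.16, where the intensities depend on how the background was subtracted, so the size is uncertain. *Rgs5*, a pericyte signaling regulator, went from 24.5 and 23.1 to 1119.6 and 805 (5.32 ± 0.17, adjusted p = 1.87e-09) and *Nrp1*, the co-receptor of semaphorins and VEGF, from 51.6 and 92.0 to 1657 and 3232 (5.07 ± 0.47, adjusted p = 1.97e-05). *Pmp22* (5.24), *Zfp711* (5.02), *S100g* (5.0), *Dgkk* (4.92) and *Greb1* (4.92) followed. Of the 15 largest decreases the first was *1700094J05Rik*, with 247 and 232 at day 0 and 7.28 and 7.82 at day 8 (-4.99 ± 0.15, adjusted p = 1.33e-09). At day 8 it stood at percentile 2.82, so its size and rank are uncertain too. The same limit holds for *Stk31*, *Gm7969*, *Gzmf*, *Ccdc38*, *Mael* and *Mei4*, which stood at percentiles 4.39 to 12.8 at day 8. *Mymx*, known as a fusion peptide of muscle cells, went from 2240.2 and 2236 to 126 and 117 (-4.20 ± 0.32, adjusted p = 2.5e-06), and *Calml4*, a calmodulin-like gene, from 568 and 728 to 21.5 and 35.1 (-4.55 ± 0.54, adjusted p = 8.1e-05). *Ccdc38* (-3.94), *Pramel6* (-3.71), *Gm7788* (-3.68), *Gm7969* (-3.68, 1 other probe set called higher) and *Gzmf* (-3.67) made up the rest.

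By day 15, WT cells were called higher than at day 8 for 1751 genes (9.68%) and lower for 1721 (9.51%), and both days share 1 scaling. Without the first WT day 15 array these counts were 977 and 744, and in a fit of only the 4 arrays compared they were 152 and 55. The streak genes were lower than at day 8 for 7 of 10, with *Mixl1* at 42.7 and 44.4 (log2 -4.58, adjusted p = 0.000381) and *Eomes* at 110.1 and 142 (log2 -4.08, adjusted p = 0.000311), as were 5 of 9 primed genes, with *Fgf5* at 55.7 and 55.3 (log2 -3.12, adjusted p = 0.0122). Genes not called at day 8 fell later, *Dnmt3b* to 513 and 646 (log2 -2.62, adjusted p = 0.00025) and *Nodal* to 182 and 302 (log2 -2.18, adjusted p = 0.00139). The core factors were lower than at day 8 for 4 of 4, *Pou5f1* to 132 and 331 (log2 -3.10, adjusted p = 0.0016) and *Nanog* to 99.8 and 233 (log2 -2.64, adjusted p = 0.00175), while *Klf4* was not called lower again (342 and 985, adjusted p = 0.702). *Bmp2* fell back in part to 649 and 786 (log2 -1.35, adjusted p = 0.000996). Yolk sac and liver proteins were higher than at day 8 for 9 of 12, *Afp* at 3596 and 10444 (log2 3.08, adjusted p = 0.0105), and *Hand2* and *Dlk1* also kept rising (log2 1.78, adjusted p = 0.0189 and log2 2.10, adjusted p = 0.0211). Macrophage and platelet genes were higher at day 15 than at day 8 for 9 of 10, with *Tyrobp*, a myeloid adaptor, at 1342 and 416 (log2 4.23, adjusted p = 0.000733), and so were 10 of 17 fibroblast genes. *Krt5* was back at 199 and 165 (log2 1.55, adjusted p = 0.000165), while *Trp63* read 23.2 and 23.9 and was not called.

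**Figure D4:**
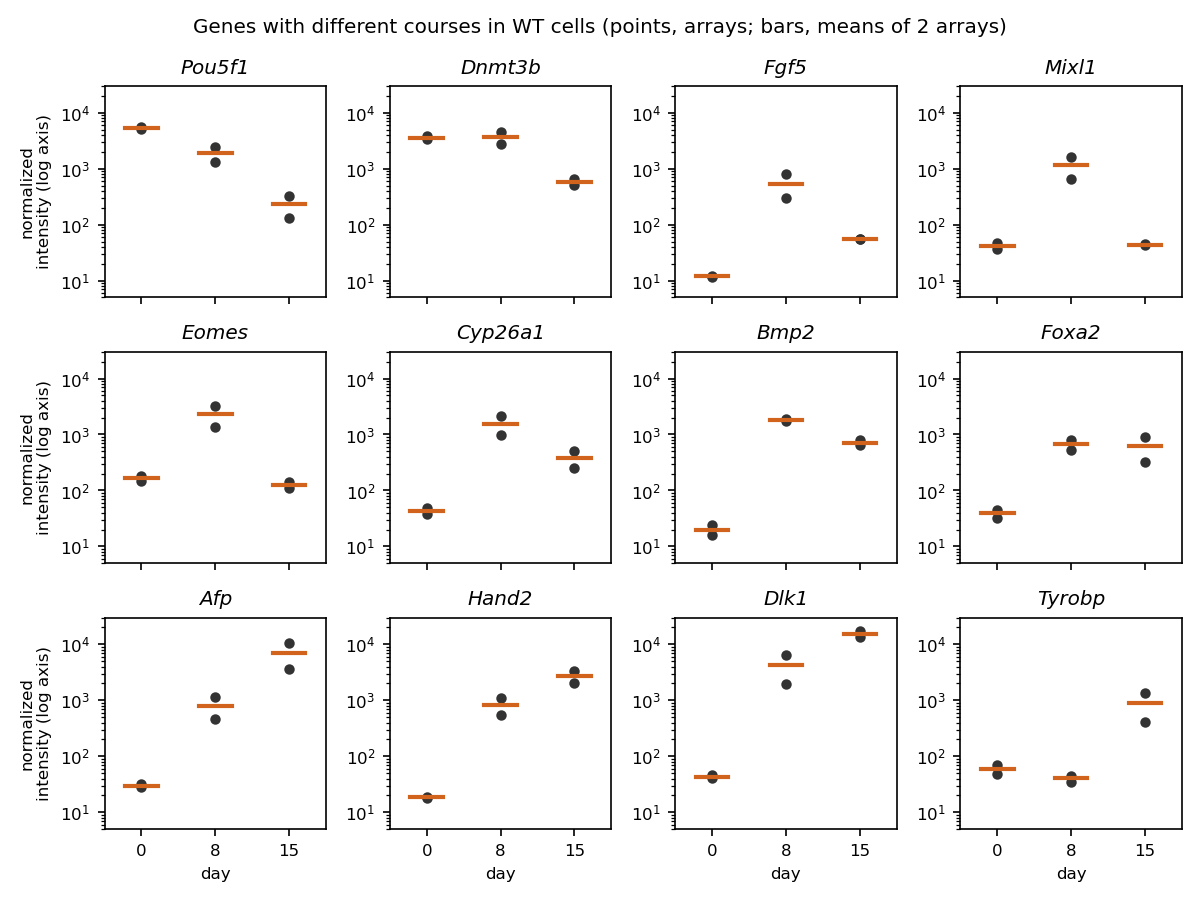
Normalized intensity (log axis) of 12 genes in WT cells at days 0, 8 and 15; points are arrays and bars are means of 2 arrays. *Fgf5*, *Mixl1*, *Eomes* and *Cyp26a1* peak at day 8, *Pou5f1* falls at each step, *Dnmt3b* falls only after day 8, and *Afp*, *Hand2*, *Dlk1* and *Tyrobp* are highest at day 15.

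The change by day 8 was set beside that of the KO cells, whose day 0 and day 8 arrays are split between the same 2 scalings. Of the 489 genes at least 4-fold higher in WT cells 444 were called higher in KO cells, where 31.9% of all genes were, and 0 lower, with median differences of 2.53 in WT and 2.04 in KO cells. Of the 407 at least 4-fold lower 404 were called lower, where 32.2% of all genes were, and 0 higher, with medians of -2.38 and -2.21. Naive factors had a median of -2.93 in WT and -2.05 in KO cells, core factors -1.72 and -1.09, and cardiac genes 2.13 and 1.42. These differences between genotypes were tested gene by gene as an interaction. In that test 0 genes (0.0%) changed more upward in KO than in WT cells and 2 (0.0111%) more downward, *Aldh1a2* and *Klhl29*, while 4090 of the 45037 probe sets had an unadjusted p under 0.05. *Pou5f1* changed by -0.88 in KO and -1.58 in WT cells (adjusted p of the difference = 0.762), *Sox2* by -2.23 and -3.27 (0.396), *Fst* by 0.51 and 2.40 (0.245), and *Lum* by -0.18 and 4.12 (0.338). None of these passed, which does not show that the genotypes changed alike. The count of this test moved with single arrays. It was 744 without the first WT day 8 array and 83 without the KO array of line F35 at day 0, and between 0 and 8 without any other 1.

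**Figure D5:**
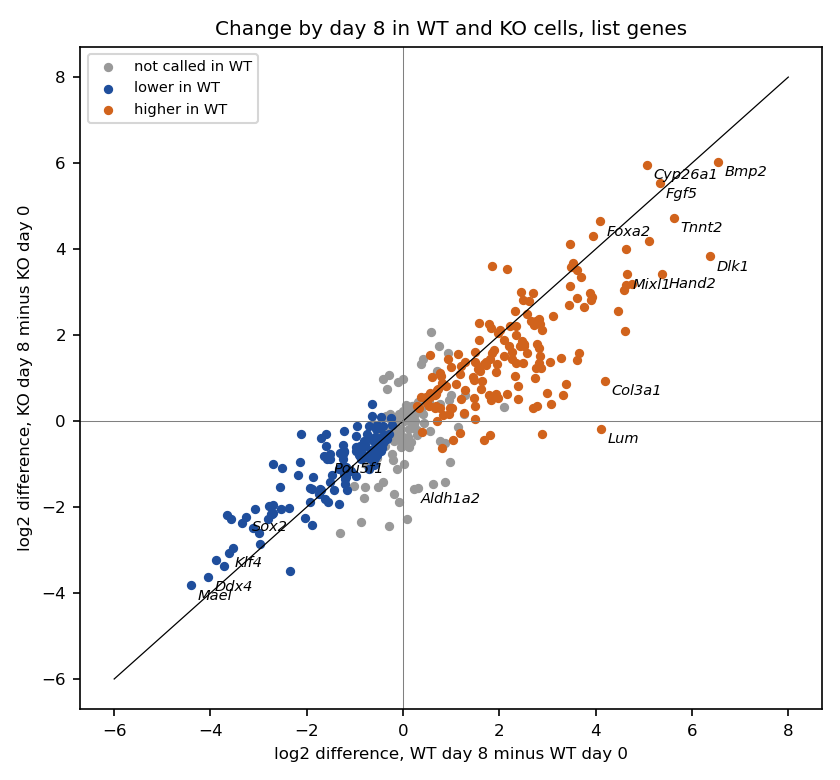
Log2 change from day 0 to day 8 in WT cells (x axis) against that in KO cells (y axis) for the list genes; the line marks equal change, and colours give the call in WT cells. Pluripotency and germline genes lie low in both genotypes, *Fgf5*, *Cyp26a1* and *Bmp2* high in both, and *Lum* and *Col3a1* lie far to the right of the line.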

How the data were processed

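RNA was hybridized to 12 Affymetrix Mouse Genome 430 2.0 arrays, 2 per group. The deposited values are linear intensities made by the authors with MAS5 according to the submitters' processing notes, with no version stated. Scaling differed between the 4 arrays of day 0 and the 8 later ones. Values were taken to log2, quantile-normalized over the 12 arrays, and fitted with limma 3.58.1 (R 4.3.3, statmod 1.5.0) with 1 mean per group and eBayes with trend and robust settings. Tests were two-sided, with Benjamini-Hochberg adjustment over 45037 probe sets, 64 control probe sets having been left out. Of these 34945 name a single gene, 932 several and 9160 none, and 2441 end in _x_at, a suffix for probes that can match other genes. A gene was read from its brightest single-gene probe set outside that class. A percentile is the rank of a probe set within its array. Named genes were members of the lists, genes the study measured, genes that pass the test between genotypes, and the 15 largest called differences each way at percentile 60 or more on the brighter day with arrays that do not overlap. The arrays compared, lists and tests were chosen with earlier results of these data known, and further members of the longer lists were chosen after their values were seen. For 23 named genes another probe set was called the other way, of which *Bmp5*, *Cdx2*, *Eed*, *Gata6*, *Gm7969*, *Hnf4a*, *Igf2bp3*, *Klf5*, *Krt14*, *Myl4*, *Ndn*, *Terf1*, *Trp63*, *Utf1* and *Vim* were called. The alternatives were the normalization, the gene summary, filters, an offset, moderation, the methods' t-test and fold rule, a replicate block and leaving out single arrays. The fit was tested on simulated data.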

Additional observations from a re-analysis of the deposited data

Results flagged for a closer look

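In 2 genes the change by day 8 differed between KO and WT cells in the test of that difference. *Aldh1a2*, which makes retinoic acid, read 37.8 and 32.4 in WT cells at day 0 and 36.4 and 46.1 at day 8, against 145 and 137 and then 46.1 and 48.7 in KO cells, so the KO change was lower than the WT change (log2 difference -1.8, limma adjusted p = 0.0483). *Klhl29*, a Kelch-domain gene, read 22.8 and 19.3 and then 44.4 and 44.3 in WT cells, against 24.8 and 23.6 and then 18.4 and 16.1 in KO cells (-1.57, adjusted p = 0.0483), all dim levels. The calls were lost under most alternatives, with adjusted p-values between 0.00315 and 0.214 for *Aldh1a2* and between 0.00824 and 0.214 for *Klhl29*, and the sign was kept in each. Without the WT day 8 array 1 the adjusted p-values were 0.00315 and 0.00824, and without the KO day 8 array 1 both were 0.214.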

How the results depend on the processing

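Intensities as deposited gave 1349 genes higher, 13802 lower, 151 at least 4-fold higher and 2890 at least 4-fold lower at day 8, because the days then keep their separate scales. Brighter probe sets only gave 3703 lower and 215 at least 4-fold lower, with fewer genes tested. Averaging all probe sets of each gene gave 321 at least 4-fold higher. An offset of 32, which shrinks differences of dim genes, gave 270 and 145 at least 4-fold higher and lower. The methods' t-test gave 4013 higher and 4750 lower at its threshold and 1569, 2366 and 176 (at least 4-fold higher) after Benjamini-Hochberg. The 1.8-fold rule gave 2871 and 3134. Leaving out each array in turn gave 4749 to 5452 higher, 5201 to 6017 lower, 397 to 634 at least 4-fold higher and 399 to 438 at least 4-fold lower. For the difference between genotypes 0 genes were called as deposited, with brighter probe sets, after centring, without moderation, with normal scores, with only the arrays compared and without x_at probe sets, 1 with the offset, and between 0 and 744 without single arrays. Day 15 against day 8 gave 152 higher and 55 lower with only the arrays compared, and 977 to 2160 higher and 744 to 2310 lower without single arrays, the fewest without the first WT day 15 array.

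Whether same-numbered arrays share a line or culture is not stated. The differences between array 1 and array 2 at WT day 0 and at WT day 8 had a correlation of -0.072, and other pairs of groups lay between -0.1 and 0.138. Such values cannot show whether the arrays are paired. With the replicate block 5578 genes were higher and 6052 lower, 489 and 407 at least 4-fold, and 0 differed between genotypes.

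Of 226 genes named, with *Ezh1* left aside, 187 were called and 3 turned direction, all where the probe sets of a gene were averaged: *Foxf1* to 1.52, *Gata2* to -0.57 and *Krt4* to -1.0. Averaging ended the calls of *Eed*, *Foxh1*, *Hnf4a*, *Igf2bp3*, *Klf5*, *Krt14* and *Myl4*. After centring 13 lost and 6 gained a call. Leaving out 1 array ended 19 calls, and each is named beside its result. The cause of these changes was not tested. Of 419 list medians recomputed, 365 moved by less than the spread of the arrays. Dim genes carry little signal over background, and of the 7186 genes under percentile 60 on both days 26.8% were called higher and 33.2% lower, near the shares of all genes.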

Other observations

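Among the 2441 probe sets ending in _x_at, 17 were over 64-fold lower on every later array than on the day 0 arrays, against 0 of the 42596 others. This count was made on the deposited values, where the median of all probe sets sat at -1.09 between WT day 8 and day 0. In the fit after quantile normalization 7.46% against 2.1% were called at least 4-fold lower in WT cells at day 8. They were left out of the rankings.

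The change made by centring on the median instead of quantile normalization depended on the level of the gene, with a median of -0.19 for genes under percentile 60, 0.42 between percentiles 60 and 90 and 0.43 above.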
